A study of Mus musculus with 2 samples.

Results

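Ern1, Ern2, Xbp1, Eif2ak3, Atf6 and Atf6b encode the sensors of endoplasmic reticulum (ER) stress and the transcription factor activated by one branch of that response. They were taken by symbol from the 27998 genes of the deposited matrices, and all 6 were found. UMIs (unique molecular identifiers, one per captured transcript) of these 6 genes were followed in cell classes of the mouse lung. The cells came from lungs of C57Bl6 mice that all received bleomycin, which injures the lung and leads to fibrosis, at day 1. One group was then given navitoclax (ABT-263), an inhibitor of BCL-2 and of its relatives BCL-W and BCL-XL, from day 15 to day 20, and the other was given vehicle. Lungs were taken 21 days after injury, and epithelium and stroma were sorted by flow cytometry and pooled in equal parts before capture. The study asks how BCL-2 bears on activation of the sensor IRE1α, on ER stress and on fibrosis. Each group had 1 library, no uninjured lung was analysed here, and how many mice were pooled is not stated in the labels.

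The unfolded protein response is set off when unfolded proteins build up in the ER. Ern1 encodes IRE1α, a membrane kinase and ribonuclease that removes a short intron from the Xbp1 mRNA, and the spliced mRNA yields the active factor XBP1s, which raises genes for protein folding, secretion and degradation. Ern2 encodes IRE1β, a relative of IRE1α found in mucus-secreting epithelium. Eif2ak3 encodes PERK, a kinase that slows translation through eIF2α. Atf6 and Atf6b encode membrane-bound factors that are cut in the Golgi and then act in the nucleus. Activation of these proteins happens by dimerization, phosphorylation, cleavage or splicing, none of which is read by a count of transcripts.

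The intron that IRE1α removes from Xbp1 is shown because it marks what the deposited counts can and cannot separate. It is 26 bases long and lies on the plus strand at chr11:5524282-5524307 (GRCm38), within exon 4 of 5 and within the coding sequence of the 2129-base Xbp1 transcript. The bases that are removed are in capitals, with 20 bases on each side.
Xbp1 intron: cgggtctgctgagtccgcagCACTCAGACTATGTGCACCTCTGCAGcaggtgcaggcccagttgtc
Without splicing the reading frame ran for 267 codons, and with these bases taken out it ran for 371 codons. The site is 1286 bases from the 3′ end of the transcript, while the libraries were made with a kit that reads the 3′ end and were summed per gene. The Xbp1 values below are therefore the total of unspliced and spliced mRNA, and splicing was not measured.

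The other genes lie at chr11:106394650-106487852 (Ern1, minus strand), chr7:122169893-122186207 (Ern2, minus), chr6:70844515-70905245 (Eif2ak3, plus), chr1:170704674-170867771 (Atf6, minus) and chr17:34647146-34655074 (Atf6b, plus). Xbp1 itself spans chr11:5520659-5525893. The annotated genes that overlap Eif2ak3 and Atf6 were small nuclear or nucleolar RNAs and an unclassified model, and none overlapped the other 4.

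The navitoclax library held 8064 barcodes and 98517048 UMIs, and the vehicle library 8784 barcodes and 97958947 UMIs. After filtering and removal of doublets, 6228 navitoclax and 7174 vehicle cells were analysed, and 13 barcode sequences among them occurred in both libraries. Classes were named from clusters by marker genes and carry the ending "-like" for that reason. In classes of 100 or more cells per library, between 5 and all of each class's own 6 to 8 markers reached 20 CPM (a gene's UMIs on a per-million scale, relative to all UMIs of the class) in each library. Fibrotic fibroblast-like cells were mostly 1 cluster of 242 navitoclax and 337 vehicle cells, led by Saa3, Hp and Nnat. Its markers scored higher for alveolar (0.548) than for fibrotic fibroblasts (0.469). Cthrc1 and Postn were among the leading genes of the other cluster, of 11 navitoclax and 19 vehicle cells. The 7 fibrotic markers summed to 6054 CPM in navitoclax and 8510 CPM in vehicle, against 9126 and 7041 CPM in adventitial fibroblast-like cells. In the navitoclax library 18.1% of barcodes exceeded 15% mitochondrial UMIs, against 13.8% in the vehicle library. The summed level of 10 genes induced by tissue dissociation was 3859.5 CPM in navitoclax and 3095 CPM in vehicle AT2-like cells, and it was 10586 and 10238 CPM in navitoclax and vehicle fibroblasts. It was 4342 CPM in navitoclax and 2987 CPM in vehicle transitional-like cells, and 10505 CPM in navitoclax and 8046 CPM in vehicle fibrotic fibroblast-like cells. Not all 10 genes went with the sum. In navitoclax 4 were lower in AT2-like cells, 5 in fibroblasts, 3 in transitional-like and 2 in fibrotic fibroblast-like cells. With 1 library per group, treatment and library cannot be told apart, no test between treatments can be made, and all intervals below are 95% intervals that cover counting error only.

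Xbp1 was detected in every class, and alveolar fibroblast-like cells, the resident fibroblasts of the alveolar wall, had the highest level of the classes with at least 100 cells per library. They held 243 CPM (234 to 251) in the navitoclax library and 260.1 CPM (252 to 268) in the vehicle library. Adventitial fibroblast-like cells, which surround large vessels and airways, held 199 CPM and 189 CPM, and fibrotic fibroblast-like cells 182 CPM and 201 CPM, in navitoclax and vehicle. These 2 classes did not differ from each other beyond their intervals, and both lay below alveolar fibroblast-like cells in both libraries. Peribronchial fibroblast-like cells were lower, at 123 CPM in navitoclax and 128 CPM in vehicle, which is close to the level of the surfactant-producing type II-like (AT2-like) cells, at 110.4 CPM (107 to 114) in navitoclax and 121 CPM (117 to 124) in vehicle.

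Epithelial classes other than AT2-like cells held less Xbp1 as CPM. Transitional-like cells, an intermediate state between type II and type I cells that appears after injury, held 80.6 CPM in navitoclax and 91.7 CPM in vehicle. Ciliated-like airway cells held 78.3 CPM in navitoclax and 84.5 CPM in vehicle. Club-like cells, the secretory cells of the airway, held 73.6 CPM in navitoclax and 52.4 CPM in vehicle. This was the lowest Xbp1 level of the classes with at least 100 cells per library, in both libraries. AT2-like cells lay above transitional-like cells in both libraries, while ciliated-like and club-like cells were apart only in vehicle. This order depended on the scaling, since Scgb1a1, the main secretory protein of club cells, took 42.0% of all UMIs of club-like cells in navitoclax and 56.2% in vehicle. With the 15 genes that hold over 1% of the UMIs of any class left out of the totals, club-like cells had 149.8 CPM in navitoclax and 135 CPM in vehicle, above ciliated-like cells with 85.1 CPM in navitoclax and 92.3 CPM in vehicle. AT2-like cells then had 181 CPM in navitoclax and 194 CPM in vehicle. Peribronchial fibroblast-like cells had 147 CPM and 154 CPM, so they were no longer close to AT2-like cells.

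Small classes carried Xbp1 as well. Immune-like cells also carried all 4 markers of plasma cells, secretory cells known to need XBP1, and all 6 endothelial markers at 20 CPM or more. They held 508 CPM (365 to 690) in navitoclax and 441 CPM (320 to 592) in vehicle. There were 19 navitoclax and 21 vehicle cells, and a single cell supplied 24 of the 41 Xbp1 UMIs in navitoclax and another 15 of the 44 in vehicle. Cells like type I cells (AT1-like), which line the alveolus for gas exchange, held 57.3 CPM (39.2 to 80.9) in 54 navitoclax cells and 96.8 CPM (81.2 to 114) in 138 vehicle cells. The ratio was not computed there, since it was reserved for classes with 100 cells in both libraries.

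The share of cells with an Xbp1 UMI depends on depth, so each cell was thinned to 2000 UMIs. At this depth an Xbp1 UMI was found in 37.8% (35.4 to 40.3) of navitoclax and 39.7% (37.5 to 41.9) of vehicle alveolar fibroblast-like cells. The thinned shares in AT2-like cells were 18.5% (16.8 to 20.3) in navitoclax and 21.7% (20.1 to 23.5) in vehicle. Without thinning the order of the libraries in AT2-like cells was the opposite, 82.6% in navitoclax against 81.1% in vehicle, at median depths of 19924 and 18226 UMIs.

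**Figure D1:**
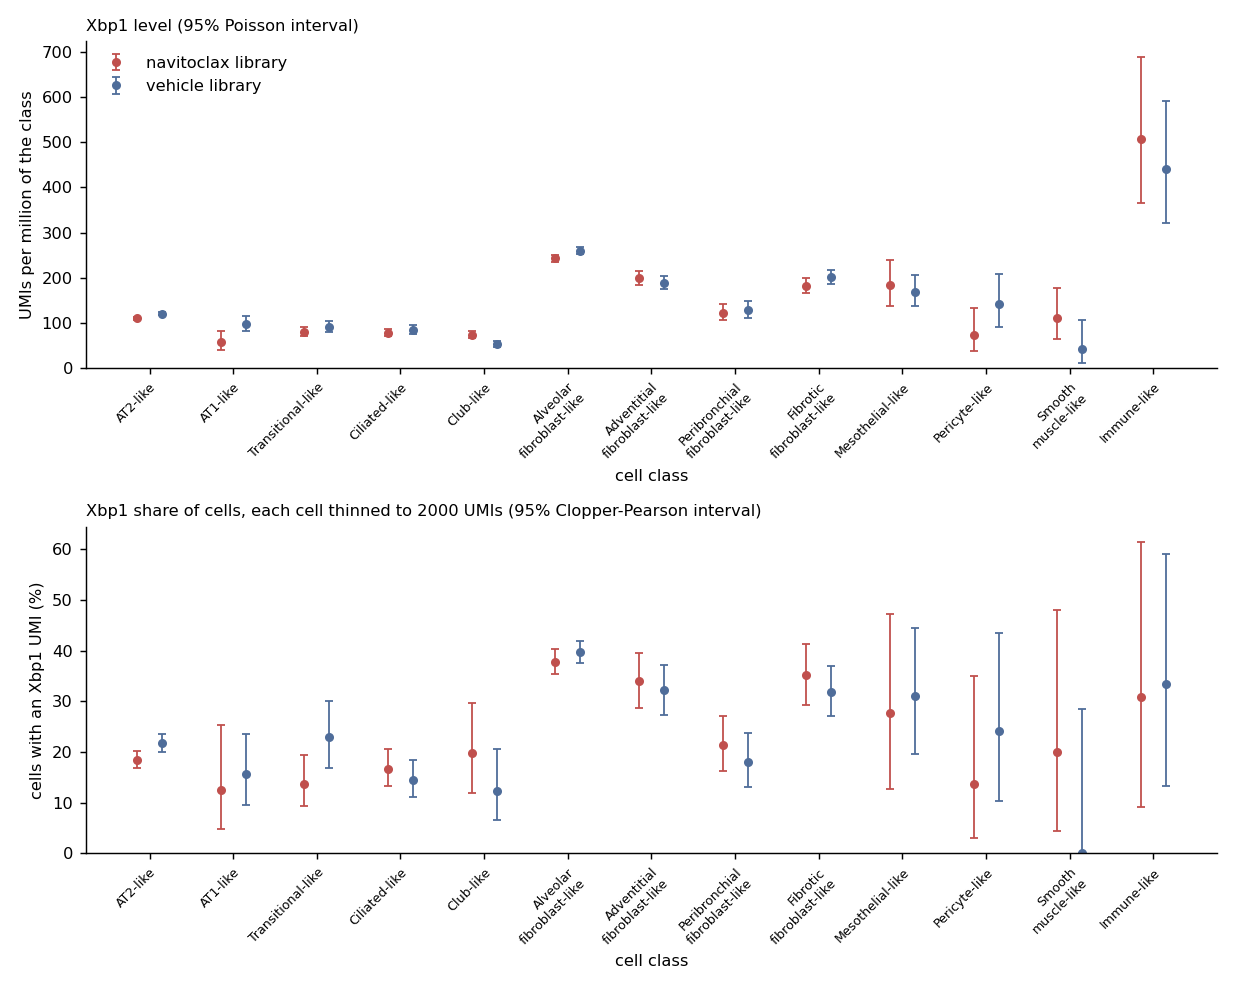
Xbp1 in 13 cell classes (x axis), navitoclax in red to the left of vehicle in blue, as CPM (top) and as the percentage of cells with an Xbp1 UMI after thinning to 2000 UMIs (bottom). Points are values of 1 library each, and bars are 95% counting intervals. Alveolar fibroblast-like cells stand at 243 and 260.1 CPM, above AT2-like cells at 110.4 and 121 CPM, and the interval of immune-like cells is wide.

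The distance between fibroblasts and AT2-like cells depended on what the levels were scaled to. As CPM of all UMIs, Xbp1 was 2.20 times (2.10 to 2.30) as high in alveolar fibroblast-like as in AT2-like cells of the navitoclax library, and 2.16 times (2.07 to 2.25) as high in the vehicle library. Surfactant protein C alone took 23.4% of navitoclax and 22.4% of vehicle UMIs of AT2-like cells. When the same 15 genes were left out of the totals, the difference was 1.58-fold in navitoclax and 1.57-fold in vehicle. With TMM scaling, which centres the bulk of genes between 2 profiles, it was 1.39-fold in navitoclax and 1.36-fold in vehicle. Alveolar fibroblast-like cells were the higher class under each of these scalings.

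Between the libraries, Xbp1 stayed within 25% higher and 20% lower, the same fold in either direction, in every compared class except club-like cells. In AT2-like cells 4584 Xbp1 UMIs were counted in navitoclax and 5117 in vehicle, a ratio of navitoclax to vehicle CPM of 0.916 (0.880 to 0.954). In alveolar fibroblast-like cells 3334 UMIs were counted in navitoclax and 4070 in vehicle, a ratio of 0.933 (0.891 to 0.976). Both differences were small, and their counting intervals left out 1. Pooled fibroblasts gave 216 CPM in navitoclax and 229.6 CPM in vehicle, a ratio of 0.941 (0.907 to 0.977). The intervals of transitional-like cells (0.879, 0.740 to 1.04), ciliated-like cells (0.926, 0.80 to 1.07), peribronchial (0.958, 0.776 to 1.18), fibrotic (0.901, 0.801 to 1.01) and adventitial fibroblast-like cells (1.06, 0.949 to 1.18) included 1.

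AT2-like cells fell into 9 clusters, of which 7 had at least 100 cells in both libraries. The Xbp1 ratio ran from 0.841 to 1.00 over these 7 and was above 1 in 1 of them. The lowest ratio, 0.841 (0.738 to 0.958), belonged to a cluster with 114 CPM in navitoclax and 136 CPM in vehicle. The cluster led by Gdf15, Cdkn1a and Phlda3, genes known as targets of p53, and by the chemokines Ccl3 and Ccl4 had 109.6 CPM in navitoclax and 121 CPM in vehicle, a ratio of 0.903 (0.792 to 1.03).

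Club-like cells were the class in which Xbp1 was over 25% higher in the navitoclax library. They held 282 Xbp1 UMIs in 103 navitoclax cells and 236 in 107 vehicle cells, a ratio of 1.40 (1.18 to 1.68). The ratio was 1.40 (1.13 to 1.74) and 1.44 (1.04 to 2.0) in the 2 clusters that made up the class, and no cell held more than 5.51% of the Xbp1 UMIs of the class in its library. These cells also differed in depth and makeup between the libraries, with a median of 28942 UMIs in navitoclax and 46456 UMIs in vehicle and with the shares of Scgb1a1 given above. The median log2 ratio of all 7664 genes tested in club-like cells was 0.35, and 65.7% of them were over 25% higher in the navitoclax library. Without the 15 dominant genes in the totals the Xbp1 ratio was 1.11 (0.928 to 1.32), and with TMM scaling it was 1.02 (0.857 to 1.22), and both intervals included 1.

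Some secretory genes of the mucosa, several of them known to depend on IRE1β or XBP1 in other epithelia, differed in the same club-like cells by more than Xbp1, and others on the list did not. They are described here after their values were seen. Bpifb1, a secreted antimicrobial protein, had 316 CPM in navitoclax and 24.4 CPM in vehicle, a ratio of 12.9 (10.6 to 15.9). Tff2, a trefoil peptide, had 143 CPM in navitoclax and 16.7 CPM in vehicle, and the mucin Muc5b had 69.4 CPM in navitoclax and 18.9 CPM in vehicle. Agr2, an ER protein that folds mucins, had 15.4 CPM in navitoclax and 2.22 CPM in vehicle. A single navitoclax cell held 51.2% of the Bpifb1, 65.6% of the Tff2, 55.3% of the Muc5b and 54.2% of the Agr2 UMIs of the class, and Bpifb1 was found in 10 navitoclax and 5 vehicle cells. The differences came from 1 of the 2 club-like clusters, whose leading genes included Bpifb1 and Tff2. These mucosal genes were not kept out of the clustering, so the split between the clusters is not independent of their levels. In the other club-like cluster, Bpifb1 had 0 UMIs in navitoclax and 35 in vehicle, and Agr2 had 0 in navitoclax and 8 in vehicle. There Tff2 had a ratio of 0.135 (0.0256 to 0.458) and Muc5b one of 1.09 (0.652 to 1.84). Over the class, Creb3l1, an ER-bound transcription factor, had a ratio of 0.958 (0.681 to 1.34), and the intervals of Galnt12 (1.06), Spdef (0.823) and Foxa3 (0.588), which rest on few UMIs, also included 1. The 6 goblet cell markers summed to 1116 CPM in navitoclax and 127 CPM in vehicle. They include Bpifb1, Tff2 and Muc5b, so their sum in part repeats the values above. The 8 AT2 markers summed to 41707 CPM in navitoclax and 13355 CPM in vehicle. The 5 neuroendocrine markers summed to 353 CPM in navitoclax and 0.666 CPM in vehicle club-like cells. The 10 genes induced by dissociation summed to 4197 CPM in navitoclax and 2493 CPM in vehicle, and 2 of them were lower in navitoclax. The part of these differences in the Xbp1 ratio was not tested.

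**Figure D2:**
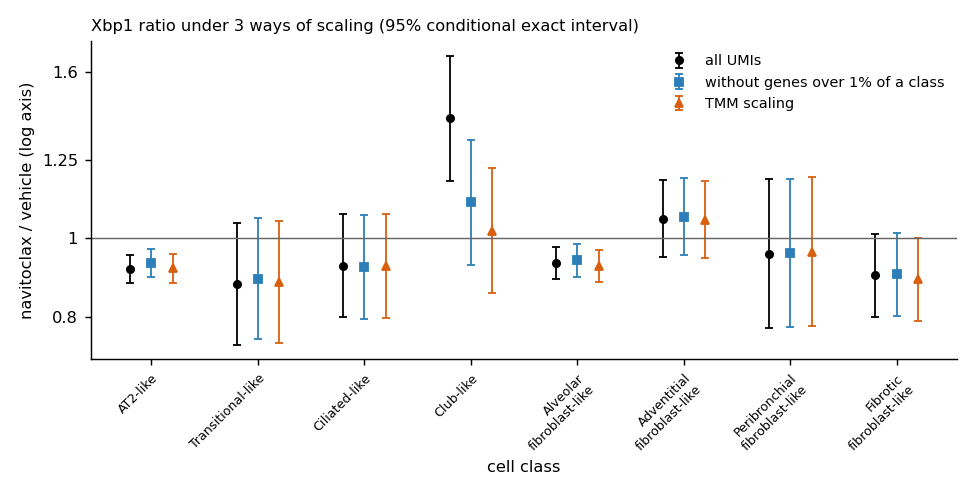
Ratio of Xbp1 between the navitoclax and vehicle libraries (y axis, log scale) in 8 cell classes (x axis), with totals of all UMIs (black), totals without the 15 genes over 1% of a class (blue) and TMM scaling (orange). Bars are 95% conditional exact intervals. In club-like cells the ratio is 1.40, 1.11 and 1.02 under these scalings, while in AT2-like and alveolar fibroblast-like cells it stays below 1 under each of them.

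Ern1, the gene of IRE1α, was low in every compared class and lowest in the airway. In AT2-like cells it had 607 UMIs or 14.6 CPM in navitoclax and 556 UMIs or 13.1 CPM in vehicle, a ratio of 1.12 (0.994 to 1.26). Alveolar fibroblast-like cells had 15.6 CPM in navitoclax and 14.5 CPM in vehicle, a ratio of 1.08 (0.891 to 1.31). Transitional-like cells had 12.5 CPM in navitoclax and 11.1 CPM in vehicle, and the 3 other fibroblast classes lay between 10.4 and 12.7 CPM over both libraries. Airway cells, ciliated-like and club-like together, had 4.76 CPM in navitoclax and 4.43 CPM in vehicle, from 44 and 37 UMIs. Their intervals lay below those of AT2-like cells in both libraries, but the order of neighbouring classes was not separated.

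Ern1 stood above 1 in 6 of 8 classes, with ratios between 0.874 in ciliated-like and 1.33 in club-like cells, and each of the 8 intervals included 1. The club-like ratio stood in the class where 65.7% of all genes were over 25% higher, and without the 15 dominant genes in the totals Ern1 had 9.03 CPM in navitoclax and 8.60 CPM in vehicle there. Over all epithelial cells the ratio was 1.11 (1.01 to 1.23), from 800 UMIs in navitoclax and 703 in vehicle. It was above 1 in 5 of 7 AT2-like clusters, with a range of 0.898 to 1.42. After thinning, 2.68% of navitoclax and 2.64% of vehicle AT2-like cells held an Ern1 UMI, a difference within the intervals. Ern1 and Xbp1 thus had ratios on opposite sides of 1 in AT2-like cells, 1.12 and 0.916, of which the interval of Ern1 included 1.

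Ern2, the gene of IRE1β, was close to absent from the libraries. It had 0 UMIs in all navitoclax epithelial cells, which allows up to 0.0484 CPM, and 2 UMIs in all vehicle epithelial cells. In the airway, where mucus-secreting cells would be found, it had 0 UMIs in 516 navitoclax cells, which allows up to 0.324 CPM, and 1 UMI in 474 vehicle cells. Alveolar fibroblast-like cells, a type not known for this gene, held 0 UMIs in 1604 navitoclax and 2 UMIs in 2040 vehicle cells. The 0.0980% of vehicle alveolar fibroblast-like cells with an Ern2 UMI at a median depth of 7356 UMIs exceeded the 0.0434% of vehicle AT2-like cells at 18226 UMIs, so neither share stands above background. No comparison of Ern2 between the libraries can be made from these counts.

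Eif2ak3, the gene of PERK, was also low and was nearly equal between the libraries in the large classes. AT2-like cells had 12 CPM in navitoclax and 11.4 CPM in vehicle, a ratio of 1.05 (0.925 to 1.19). Pooled fibroblasts had 11 CPM in navitoclax and 10.9 CPM in vehicle, a ratio of 1.01 (0.854 to 1.20). Adventitial fibroblast-like cells had 14.6 CPM in navitoclax and 14.3 CPM in vehicle, and club-like cells 5.48 CPM in navitoclax and 4.0 CPM in vehicle, the highest and the lowest level of the compared classes. Both ranks depended on the scaling. Without the 15 dominant genes in the totals AT2-like cells were highest, with 19.7 CPM in navitoclax and 18.4 CPM in vehicle, and ciliated-like cells lowest, with 8.23 CPM in navitoclax and 5.94 CPM in vehicle. Ciliated-like cells had 41 UMIs or 7.57 CPM in navitoclax and 21 UMIs or 5.45 CPM in vehicle, and the interval of their ratio, 1.39 (0.803 to 2.48), included 1. In AT2-like cells thinned to 2000 UMIs, 3.44% (2.68 to 4.34) of navitoclax and 2.11% (1.56 to 2.79) of vehicle cells held an Eif2ak3 UMI. The ratio of the thinned UMIs was 1.65 (1.13 to 2.44), which is over 1.5 times the ratio from all UMIs and rests on few counts.

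Atf6 had its highest level of the large classes in alveolar fibroblast-like cells, with 62.3 CPM in navitoclax and 67.4 CPM in vehicle. Fibrotic fibroblast-like cells had 58.0 CPM in navitoclax and 54.4 CPM in vehicle, and ciliated-like cells 46.5 CPM in navitoclax and 43.0 CPM in vehicle. AT2-like cells had 24.5 CPM in navitoclax and 25.2 CPM in vehicle, adventitial fibroblast-like cells 27.7 CPM in navitoclax and 24.5 CPM in vehicle, and club-like cells the lowest level, 13.6 CPM in navitoclax and 11.5 CPM in vehicle. Alveolar fibroblast-like cells exceeded AT2-like cells 2.54-fold (2.32 to 2.78) in navitoclax and 2.68-fold (2.46 to 2.91) in vehicle. This difference was 1.82-fold and 1.94-fold without the 15 dominant genes, and 1.61-fold and 1.69-fold with TMM scaling, in navitoclax and vehicle. The airway was not uniform for Atf6, since ciliated-like cells exceeded club-like cells in both libraries. Without the 15 dominant genes in the totals, ciliated-like cells had 50.6 CPM in navitoclax and 47.0 CPM in vehicle, and club-like cells 27.6 CPM in navitoclax and 29.8 CPM in vehicle. Adventitial fibroblast-like cells then had 32.6 CPM in navitoclax and 28.7 CPM in vehicle, so club-like cells were no longer the lowest class in vehicle.

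Peribronchial fibroblast-like cells, which lie along the conducting airways and are marked by Hhip, Aspn and Fgf18, showed the lowest Atf6 ratio. They held 41 Atf6 UMIs or 24.9 CPM in 245 navitoclax cells and 54 UMIs or 41.2 CPM in 223 vehicle cells, a ratio of 0.605 (0.393 to 0.925). The ratio lay between 0.593 and 0.721 under the 11 alternatives of processing. In pooled fibroblasts the Atf6 ratio was 0.913 (0.846 to 0.986), and in AT2-like cells it was 0.974 (0.893 to 1.06). Over fibroblast clusters with at least 100 cells in both libraries, the Atf6 ratio ran from 0.605 to 1.64. The cluster highest in Atf6, at 85.8 CPM in navitoclax and 85.1 CPM in vehicle, had a ratio of 1.01 (0.871 to 1.17). It held 456 of 2895 navitoclax and 883 of 3490 vehicle pooled fibroblasts. The part of this mix in the pooled ratio was not tested. Over the 8 classes Atf6 was above 1 in 4 and below 1 in 4, and 1 of those above, club-like cells at 1.18 (0.785 to 1.76), was at 0.927 without the dominant genes and at 0.855 with TMM scaling.

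Atf6b, the paralogue of Atf6, stood above 1 in 7 of 8 classes. Pooled fibroblasts had 595 UMIs or 24.9 CPM in navitoclax and 572 UMIs or 21.8 CPM in vehicle, a ratio of 1.14 (1.02 to 1.28). AT2-like cells had 13.4 CPM in navitoclax and 12.8 CPM in vehicle, a ratio of 1.05 (0.929 to 1.18). Ciliated-like cells had 158 UMIs or 29.2 CPM in navitoclax and 86 UMIs or 22.3 CPM in vehicle, a ratio of 1.31 (1.00 to 1.72). The club-like ratio, 1.62 (1.02 to 2.61), came from 47 and 34 UMIs in navitoclax and vehicle, in the class where 65.7% of all genes were over 25% higher. In pooled fibroblasts the Atf6b ratio of 1.14 and the Atf6 ratio of 0.913 lay on opposite sides of 1. After thinning to 2000 UMIs, however, Atf6 was at 1.07 (0.911 to 1.254) in these cells, on the same side as Atf6b. The cluster makeup of the pool also differed between the libraries, as given above.

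**Figure D3:**
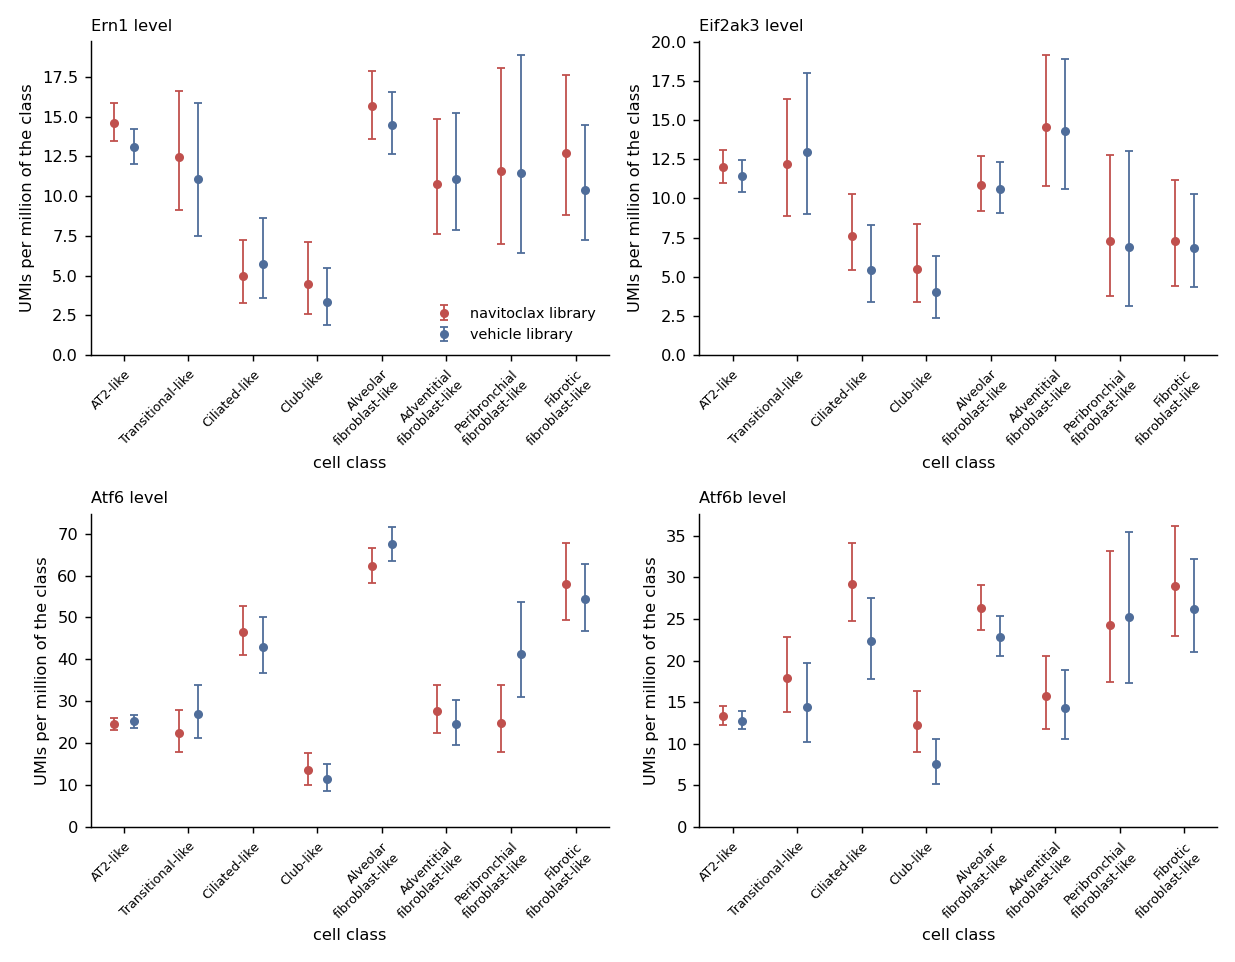
Levels of Ern1, Eif2ak3, Atf6 and Atf6b in 8 cell classes (x axis) as CPM (y axis, a separate scale for each gene), navitoclax in red to the left of vehicle in blue. Points are values of 1 library each and bars are 95% Poisson intervals. Ern1 is lowest in ciliated-like and club-like cells, Atf6 is highest in alveolar fibroblast-like cells at 62.3 and 67.4 CPM, and the libraries overlap in most classes.

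Few of the 6 genes were over 25% higher or over 20% lower, counted among genes with at least 50 UMIs over both libraries. In AT2-like cells 5 of the 6 genes had that many UMIs and 0 passed, where 6.37% of all 11778 genes were higher and 5.21% were lower by that fold. Also 0 of 5 passed in transitional-like cells (12.9% of all genes higher, 12% lower), alveolar (8.59% higher, 6.78% lower) and adventitial fibroblast-like cells (11.5% higher, 12.3% lower) and pooled fibroblasts (7.84% higher, 5.85% lower). In fibrotic fibroblast-like cells 0 of 4 passed (10.5% higher, 10.7% lower). In ciliated-like cells 2 of 4, Eif2ak3 and Atf6b, were higher (9.12% of all genes higher, 7.99% lower), and in peribronchial fibroblast-like cells 1 of 3, Atf6, was lower (14.6% of all genes higher, 14.1% lower). In club-like cells 2 of 3, Xbp1 and Atf6b, were higher, where 65.7% of all genes were higher and 1.71% lower, so that count is near the background. In ciliated-like and club-like cells together 3 of 5 were higher, Eif2ak3, Atf6 and Atf6b, where 40.6% of all genes were higher and 2.07% lower. The pooled Atf6 ratio, 1.26, lay above those of ciliated-like (1.08) and club-like cells (1.18), so it does not describe either class. For Eif2ak3 the pooled ratio was 1.44, beside 1.39 and 1.37. The pool held 413 ciliated-like and 103 club-like cells in navitoclax, and 367 and 107 in vehicle. The part of this mix was not tested. Over all epithelial cells 0 of 5 passed (12.1% of all genes higher, 3.69% lower). Ern2 never reached the minimum. With 1 library per group these counts describe the libraries.

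**Figure D4:**
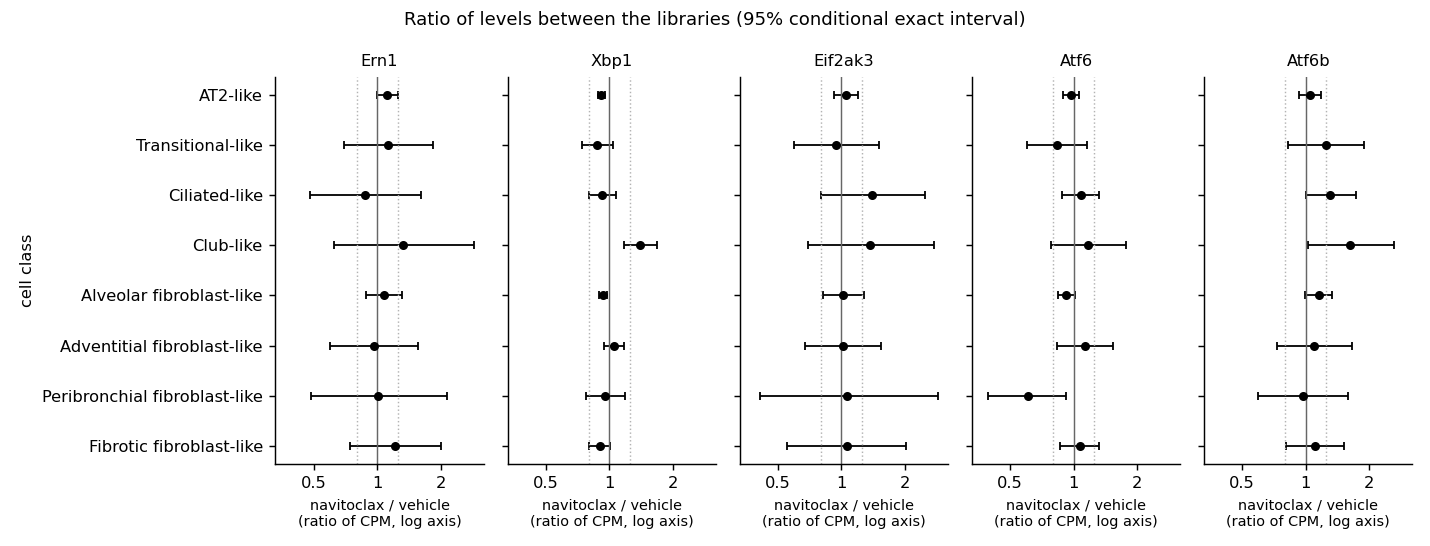
Ratio of navitoclax to vehicle CPM (x axis, log scale) of 5 genes in 8 cell classes (y axis). Points are ratios, bars 95% conditional exact intervals, the solid line marks 1 and the dotted lines mark 25% higher and 20% lower. Ratios past the dotted lines are Eif2ak3 and Atf6b in ciliated-like cells, Ern1, Xbp1, Eif2ak3 and Atf6b in club-like cells, and Atf6 in peribronchial fibroblast-like cells, and Ern1 and Eif2ak3 in club-like cells rest on fewer than 50 UMIs.

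Genes that act around the 6 were described by lists, where each count is of members over 25% higher or over 20% lower and each median is of log2((CPM + 5)/(CPM + 5)), navitoclax over vehicle. Of 19 partners and regulators of IRE1, all measured in AT2-like cells, 3 were higher and 0 lower, with a median of 0.03 beside −0.01 over all genes, of which 6.37% were higher and 5.21% lower. The 3 were the chaperone Hsp90aa1 with a ratio of 1.62 (1.59 to 1.66), and the BCL-2 family genes Bcl2l11, which encodes the pro-apoptotic BIM, with 1.30 (1.21 to 1.39), and Bcl2l2, which encodes the navitoclax target BCL-W, with 1.32 (1.19 to 1.47). In pooled fibroblasts 3 of 19 were higher and 1 lower, with Hsp90aa1 at 1.54 (1.49 to 1.59), Bcl2l2 at 1.27, Bcl2l11 at 0.792, which lay on the other side of 1 from AT2-like cells, and the ER chaperone Hspa5, which binds the sensors in the unstressed ER, at 1.35 (1.32 to 1.38). The median there was 0.05, beside 0.00 over all genes, of which 7.84% were higher and 5.85% lower.

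The targets of XBP1 are genes of ER import, folding and degradation. Their median log2 ratio was 0.11 in AT2-like cells and 0.12 in pooled fibroblasts, where Xbp1 itself was below 1. The medians over all genes were −0.01 and 0.00. In AT2-like cells 18 of 22 stood above 0 and 1 was over 25% higher, Wfs1, an ER membrane protein, at 1.26 (1.09 to 1.47). By that fold 6.37% of all genes were higher and 5.21% lower in AT2-like cells. Serp1, which stabilizes membrane proteins, was at 138 CPM in navitoclax and 117 CPM in vehicle, and Ssr2, of the translocon, at 169 CPM in navitoclax and 143 CPM in vehicle, both within that fold. In pooled fibroblasts 19 of 22 stood above 0 and 1 passed the fold, Edem1, an ER degradation factor, at 1.32 (1.19 to 1.47). There 7.84% of all genes were higher and 5.85% lower, so both counts past the fold are near the background.

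The chaperone targets of ATF6 had the highest median of the lists in AT2-like cells and pooled fibroblasts, 0.21 and 0.17, while Atf6 itself was at 0.974 and 0.913. In AT2-like cells 4 of 14 were higher and 0 lower past the fold, beside 6.37% and 5.21% of all genes, among them Sdf2l1, an ER co-chaperone, at 13.2 CPM in navitoclax and 8.43 CPM in vehicle, a ratio of 1.57 (1.37 to 1.79). Calreticulin (Calr) was at 1.27 (1.24 to 1.31) and the disulfide isomerase Pdia3 at 1.27 (1.22 to 1.31). In pooled fibroblasts 1 of 13 passed, where 7.84% of all genes were higher and 5.85% lower. This was Hspa5, with 696 CPM in navitoclax and 514 CPM in vehicle. In peribronchial fibroblast-like cells, where Atf6 was lowest relative to vehicle, 8 of 12 targets were higher and 0 lower, with a median of 0.39. Beside this, the median over all genes was 0.01, with 14.6% of all genes higher and 14.1% lower. The list was not recomputed under the alternatives in this class, and whether single cells carried the result was not checked. The class had median depths of 6465 UMIs in navitoclax and 5493 in vehicle, and all 7 smooth muscle markers also reached 20 CPM in it. The lists were chosen with earlier results of these data known, and Hspa5, Pdia6, Sec63, Dnajb11 and Dnajc3 each stand in more than one.

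Transitional-like cells had a median below 0 for ATF6 targets, and the median rested on 1 cell. It was −0.27 with 0 of 13 higher and 5 lower, where 12.9% of all genes were higher and 12% lower. Hspa5 had 317 CPM in navitoclax and 475 CPM in vehicle, and Herpud1, of ER degradation, 95.2 CPM in navitoclax and 174 CPM in vehicle. One vehicle cell with 21843 UMIs held 583 of the 1285 Hspa5 UMIs, 136 of the 471 Herpud1 UMIs and 36 of the 67 Sdf2l1 UMIs of its class. The same cell had 8 Atf6 UMIs, the most of any cell, and 10 Xbp1 UMIs. Without it, an alternative added after the data were seen, the median was 0.02 with 2 higher and 2 lower, and the ratio of Hspa5 was 1.21 (1.10 to 1.33) in place of 0.668. Herpud1, at 0.763 (0.655 to 0.889), and Creld2, at 0.773 (0.542 to 1.11), were lower without the cell too, while Sdf2l1 was at 0.939 and Manf at 1.01. The summed level of the dissociation genes was higher in navitoclax transitional-like cells, by the values given above, though 3 of the 10 were lower. Their part in these ratios was not tested. The Atf6 ratio in transitional-like cells was 0.930 (0.664 to 1.31) without the cell and 0.834 (0.602 to 1.16) with it, and that of Xbp1 0.908 (0.763 to 1.08) and 0.879.

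The remaining lists had medians near that of all genes in AT2-like cells and pooled fibroblasts. The genes that process ATF6 or act with it, such as the proteases encoded by Mbtps1 and Mbtps2, had medians of −0.02 in AT2-like cells and 0.00 in pooled fibroblasts, with 1 of 13 lower in AT2-like cells, Creb3l4, and 0 of 13 past the fold in fibroblasts. For the PERK arm the medians were −0.01 in both, with 0 of 11 past the fold in both. By that fold 6.37% of all genes were higher and 5.21% lower in AT2-like cells, and 7.84% and 5.85% in pooled fibroblasts. Ppp1r15a, the phosphatase subunit that reverses PERK signalling, was at 43.0 CPM in navitoclax and 48.1 CPM in vehicle AT2-like cells, and at 96.1 CPM in navitoclax and 116 CPM in vehicle fibroblasts. In transitional-like cells the PERK arm had a median of −0.10, with 2 of 11 higher and 2 lower beside 12.9% and 12% of all genes, and with Ddit3, which encodes CHOP, at 0.581 (0.450 to 0.748), and at 0.715 (0.548 to 0.935) without the cell named above. Known substrates of IRE1-dependent decay, mRNAs that IRE1 cleaves, had medians of 0.06 in AT2-like cells and in pooled fibroblasts, and of −0.03 in transitional-like cells. Sparc, a matrix protein among them, had 258 CPM in navitoclax and 215 CPM in vehicle AT2-like cells, a ratio of 1.20 (1.17 to 1.23). The 6 fibroblast markers summed to 34.0 CPM in navitoclax and 25.2 CPM in vehicle AT2-like cells, and the 7 markers of fibrotic fibroblasts to 38.1 CPM in navitoclax and 27.7 CPM in vehicle. Their part in the ratio of Sparc was not tested.

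**Figure D5:**
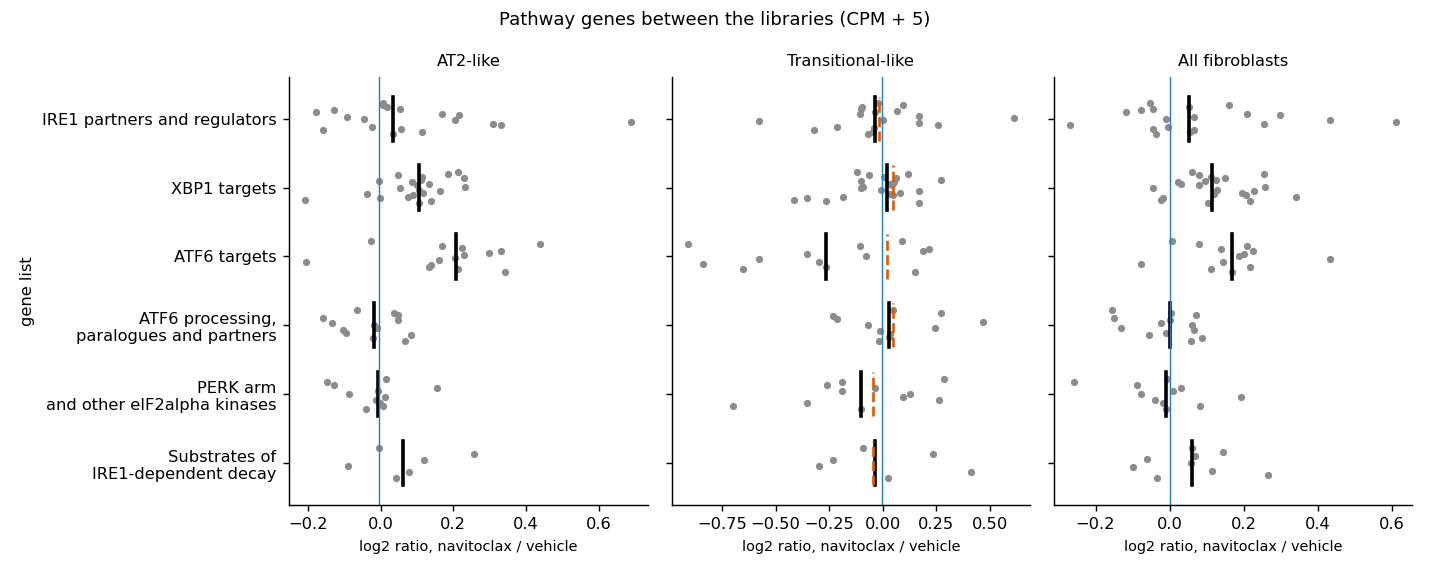
Log2 ratio of CPM + 5 between the navitoclax and vehicle libraries (x axis) for genes of 6 lists (y axis) in AT2-like cells, transitional-like cells and all fibroblasts. Grey points are genes with at least 50 UMIs over both libraries, black bars are medians, the blue line is the median of all genes, and dashed orange bars are the transitional-like medians without 1 vehicle cell. ATF6 targets have medians of 0.21 in AT2-like cells and 0.17 in fibroblasts, and in transitional-like cells −0.27 with and 0.02 without that cell.

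The pattern of each gene over classes was compared with that of 6187 genes with a mean of at least 20 CPM, over 16 values from 8 classes in 2 libraries. These values share their libraries, and all are scaled to class totals. The genes most like Xbp1 were Ssr1, which encodes a subunit of the translocon-associated complex and is on the list of XBP1 targets, with a Pearson r of 0.966, Nr1h3 (0.962) and Tbc1d2b (0.959). For Ern1 they were Rps6ka3 (0.978), Mcfd2 (0.965) and Degs1 (0.961). For Eif2ak3 they were H2-D1 (0.918), Tram1 (0.887), which is also on the list of XBP1 targets, and Itm2a (0.878). For Atf6 they were Ranbp9 (0.974), Ogt (0.951) and Iscu (0.947), and for Atf6b Tmem14c (0.963), 4921524J17Rik (0.961) and Rbm5 (0.958). With classes of at least 30 cells, which gave 20 values, 1 of the 3 genes was again among the first 3 for each of these 5 members. These were Ssr1 for Xbp1 at 0.944, Mcfd2 for Ern1 at 0.914, Tram1 for Eif2ak3 at 0.918, Ogt for Atf6 at 0.937 and 4921524J17Rik for Atf6b at 0.922.

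Among the members, Atf6 and Atf6b were the most alike over the 16 values, with r = 0.863, and both were high in fibrotic fibroblast-like and ciliated-like cells. Ern1 had r = 0.725 with Xbp1 and 0.703 with Eif2ak3, and Eif2ak3 had −0.07 with Atf6b. The patterns of Ern1 and Atf6 parted in the airway, where ciliated-like cells were low in Ern1, at 4.98 CPM in navitoclax and 5.71 CPM in vehicle, and were among the higher classes for Atf6. Ern2 was left out, since its counts were too few for a pattern.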

How the data were processed

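The authors deposited UMI counts per gene and cell barcode for 2 libraries, not normalized. The kit was Chromium 3′, per the labels. Matrices came from Cell Ranger 4.0.0, per the file headers, with the build mm10, per the submitters' processing notes. The cell filter asked for 500 or more genes and no more than 15% mitochondrial UMIs, and left 6445 navitoclax and 7396 vehicle cells. Scrublet (scanpy 1.11.5, expected rate 6%) marked 217 navitoclax (3.37%) and 222 vehicle (3.00%) cells as doublets, which were removed. Free RNA was not subtracted. Libraries were clustered together (2000 variable genes, 30 components, leidenalg 0.10.2, resolution 1), without the 6 members and the genes of the 6 ER lists, into 40 clusters. A class name needed 3 markers at 20 CPM, a score of 0.35 and a top-10 gene list in which no rival class had more markers. These cutoffs were chosen with the data in view, and no author annotation was used here. The rule left 808 navitoclax and 823 vehicle cells unnamed, among them a cluster with AT2 markers and 2 shallow fibroblast clusters, and 46 and 69 cells of mixed markers. Unnamed fibroblast clusters entered pooled fibroblasts.

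UMIs were summed per class and library. Levels carry exact Poisson, shares exact Clopper-Pearson and ratios conditional exact 95% intervals, and a count of 0 allows 3 counts of the total. All intervals cover counting error only. Median depth per kept cell was 12588 UMIs in navitoclax and 10483 UMIs in vehicle. Scripts were tested on simulated data. Named genes were the members, up to 3 genes per list with the greatest absolute log2 ratio in AT2-like, transitional-like and pooled fibroblast cells, and the 3 most similar genes. Other list genes past the fold were named after their values were seen, to account for counts of 5 or fewer. The members, lists and tests were chosen with earlier results of these data known. Gene coordinates and the Xbp1 transcript came from GENCODE M21 (GRCm38).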

Additional observations from a re-analysis of the deposited data

Results flagged for a closer look

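The ratio of Xbp1 between the libraries pointed in opposite directions in different cell classes, with counting intervals on either side of 1. It was 1.40 in club-like cells, 0.916 in AT2-like cells and 0.933 in alveolar fibroblast-like cells. The difference between classes was not tested, since each group had 1 library. Xbp1 in club-like cells was at 1.02 with TMM scaling and 1.11 without the dominant genes, as given above, while the ratios of the other 2 classes stayed below 1 under both.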

How the results depend on the processing

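No paired analysis was possible because each group had 1 library and the labels give no replicate numbers. For the same reason no replicate could be left out. Of 406 recomputed ratios of members between the libraries, 388 stayed inside the interval of the reported value, and none of the called ones crossed 1. The alternatives reuse the same libraries and some intervals are wide, so staying inside is a weak check. Ratios within the fold did cross 1, such as Atf6 in AT2-like cells (0.953 to 1.01) and in club-like cells (0.855 to 1.57). Xbp1 was below 1 in AT2-like cells, alveolar fibroblast-like cells and pooled fibroblasts under each of the 11 alternatives. Thinning to 2000 UMIs, which leaves few UMIs per gene, moved Xbp1 to 0.811, Eif2ak3 to 1.65 and Atf6b to 1.24 in AT2-like cells, Xbp1 to 0.725 and Atf6 to 0.460 in transitional-like cells, and Ern1 to 1.43 and Atf6 to 1.07 in pooled fibroblasts. It also moved Xbp1 to 1.11 in ciliated-like and 1.05 in fibrotic fibroblast-like cells, Ern1 to 3.26 (0.745 to 19.6) in fibrotic, Eif2ak3 to 1.85 in adventitial and 0.752 in alveolar, Atf6 to 1.15 in alveolar and Atf6b to 2.38 in peribronchial fibroblast-like cells, and the intervals of these ratios included 1. At resolution 0.5 Atf6 was at 1.64 in adventitial and Atf6b at 1.37 in alveolar fibroblast-like cells. Xbp1 in club-like cells was at 1.02 with TMM scaling and 1.11 without dominant genes. The cause was not tested.

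The ratio of alveolar fibroblast-like to AT2-like cells moved more often. For Xbp1 in navitoclax it was 2.49 at resolution 0.5, 2.31 with up to 30% mitochondrial UMIs, 2.41 with doublets kept, 2.45 with ER stress genes kept in the clustering, 1.39 with TMM scaling and 1.58 without the 15 dominant genes, an alternative chosen after seeing the data. For Xbp1 in vehicle it was 2.36 at resolution 0.5, 2.05 with a marker gate per cell, 2.38 with doublets, 2.40 with ER stress genes, 1.36 with TMM scaling and 1.57 without dominant genes. For Atf6 in navitoclax it was 3.2 at resolution 0.5, 2.78 at resolution 2, 2.84 with at most 10% mitochondrial UMIs, 2.98 with doublets, 2.85 with ER stress genes, 1.61 with TMM scaling and 1.82 without dominant genes. For Atf6 in vehicle it was 3.13 at resolution 0.5, 3.04 with doublets, 3.06 with ER stress genes, 1.69 with TMM scaling and 1.94 without dominant genes. Of list medians, 230 of 234 moved by at most 0.1, and the other 4 were ATF6 targets in transitional-like cells, at −0.07 to 0.01. Depth limits Ern1, Eif2ak3 and Atf6b in classes other than AT2-like and alveolar fibroblast-like cells, and Ern2 in all classes.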

Other observations

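Ratios of the sensors in single AT2-like clusters rest on fewer UMIs than those of the class. For Eif2ak3 the ratio of navitoclax to vehicle ran from 0.796 (0.581 to 1.09) to 1.62 (0.913 to 2.84) over 7 clusters. The highest came from 24 navitoclax and 32 vehicle UMIs. The cluster led by Gdf15, which also carried Cdkn1a and Phlda3, had 45 Eif2ak3 UMIs or 13.9 CPM in navitoclax and 52 UMIs or 9.03 CPM in vehicle, a ratio of 1.54 (1.01 to 2.35). The other Eif2ak3 intervals included 1. The ratios of Atf6 over the same clusters ran from 0.863 to 1.41, and those of Atf6b from 0.919 to 1.36. Each of these Atf6 and Atf6b intervals included 1. The difference between clusters was not tested, and these clusters were singled out after their values were seen.

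Mesothelial-like cells, which cover the lung surface, carried Ern1 and Eif2ak3 at levels near or above those of the larger classes, from few cells. Their Atf6 level, 41.6 CPM in navitoclax and 32.4 CPM in vehicle, lay below the 62.3 and 67.4 CPM of alveolar fibroblast-like cells. Ern1 had 24.3 CPM (9.75 to 49.98) in 30 navitoclax cells and 25.6 CPM (14.3 to 42.2) in 60 vehicle cells. Eif2ak3 had 20.8 CPM (7.63 to 45.2) in navitoclax and 20.4 CPM (10.6 to 35.7) in vehicle mesothelial-like cells. AT1-like cells had 46.6 CPM (30.4 to 68.2) of Atf6 in navitoclax and 38.4 CPM (28.9 to 50.1) in vehicle.

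An adventitial fibroblast-like cluster led by Ebf1, Ccl8 and Scara5 had 211 Xbp1 CPM in 160 navitoclax and 169 CPM in 179 vehicle cells. The interval of its ratio was 1.04 to 1.51, where the class as a whole was at 1.06. The other cluster of the class, led by Adam23, was at 0.965 (0.842 to 1.11). Past the fold used above, 15.2% of all genes were higher and 16.1% lower in the cluster led by Ebf1. That cluster was singled out after its values were seen, and the difference between the clusters was not tested.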
